A study of Mus musculus with 54 samples.

Results

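Cholesterol is the precursor of all steroid hormones, and the follicle wall must obtain it in order to make progesterone. A set of 31 genes was chosen by symbol, in view of earlier results of these data, from the 25149 genes measured in each of 54 libraries of mouse follicle sides. It comprised 18 synthesis enzymes, 5 regulators of sterol sensing and 8 genes of cholesterol uptake, transport, storage and efflux. All 31 were present in the tables, and 30 had enough counts to be tested in every comparison. The remaining gene, Abcg1, an exporter of cholesterol to lipoprotein particles, had median counts of 5, 2, 5 and 3 in the 4 groups and was left untested.

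The follicles were isolated enzymatically from ovaries of female CD-1 mice aged 14 to 16 days, an outbred stock, and grown in alginate hydrogel for 8 days. They then spent 12 h in maturation medium, which held serum, EGF and recombinant FSH in both arms, either without hCG or with it. hCG is an analog of luteinizing hormone and was used to induce ovulation. The putative unruptured side (15 libraries) and the putative ruptured side (14 libraries) came from follicles without hCG and were told apart by morphology and imaging, since no rupture had occurred. The unruptured side (12 libraries) and the ruptured side (13 libraries) came from post-hCG follicles. The tissue label reads cumulus-oocyte complex, but by the study's methods these complexes were removed and only the follicle wall was sequenced. Isolation removes much of the theca layer, the outer steroid-producing cells, and by the study's methods such a layer forms again and grows in culture.

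In the cell, acetyl units are condensed and carried through mevalonate to isoprenoid diphosphates, these are joined to squalene, squalene is closed to lanosterol, and lanosterol is trimmed to cholesterol. The transcription factors SREBP-1 and SREBP-2, encoded by Srebf1 and Srebf2, drive this pathway when membrane sterol is low, because their escort protein SCAP then carries them out of the endoplasmic reticulum, where INSIG proteins otherwise hold them. Luteinizing granulosa cells also take cholesterol from lipoproteins through the receptor SR-B1, encoded by Scarb1, and store it as esters made by SOAT1.

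Expression levels are given as TPM, a transcript level scaled for gene length and library size, as the lowest, median and highest library of a group. Differences are log2 fold changes (log2FC) from edgeR's quasi-likelihood test on the counts, with Benjamini-Hochberg adjustment over all genes tested and a threshold of 0.05. A positive log2FC means higher on the ruptured side or, between media, higher post-hCG. Library totals ran from 1497071 to 2834734 counts, with the lowest group median (1744896) on the putative ruptured side and the highest (2362975) on the putative unruptured side. No library repeated another of its group, as the lowest chi-square per gene between 2 libraries was 4.02. The labels do not state whether libraries of a group came from separate animals, so the p-values measure the spread between these libraries. By the study's methods follicles were cut into both sides. The labels do not link the sides of a follicle, so the sides were compared as unpaired libraries.

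Markers of the cell types of the follicle moved with the groups. The summed TPM of 7 granulosa markers had medians of 2612 (putative unruptured), 9099 (putative ruptured), 1389 (unruptured) and 1154 (ruptured), with ranges of 802 to 5403, 3185 to 13505, 883 to 1934 and 751 to 1406. In the same order, the summed TPM of 11 theca and stroma markers had medians of 535, 40.7, 349 and 6.38, with ranges of 34.9 to 2787, 5.76 to 572, 77.3 to 1336 and 3.23 to 54.3. The summed TPM of 5 immune markers had medians of 30.8, 0.620, 12.7 and 0.570. The summed TPM of 7 oocyte markers had a median of at most 0.200 in each group. Its highest library reached 131 (putative unruptured), 21.4 (putative ruptured), 6.87 (unruptured) and 0.2 (ruptured). Amh, a granulosa marker of growing follicles, was at 0 in every library of both ruptured sides, which was not typical of its list. Of the 7 granulosa markers, 6 had a median of at least 1 TPM on the putative ruptured side, against 4 on the putative unruptured side. The theca enzyme Cyp17a1 was at 0 in every post-hCG ruptured library. In whole follicle sides, a change in the share of a cell type cannot be told apart from a change of RNA per cell.

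The promoters of synthesis genes are shown first, because SREBP acts on this pathway through its promoters. RefSeq promoters of GRCm38.p6, spanning 250 bases before to 50 bases after the transcription start, matched 24 of the 31 genes. The first listed start was used where a gene had several. Fdps, Fdft1, Sqle, Stard4, Scarb1, Npc1 and Abcg1 had no entry in the reference, so their promoters were not searched. The box CCAAT, read on either strand and bound by the factor NF-Y, a partner of SREBP at sterol genes, was present in 13 of the 15 matched synthesis promoters (86.7%). The share was 37.9% among the first promoters of all 27025 genes in the reference and 38.7% among those of the genes tested. Of the other members, 4 of 5 regulators and 3 of 4 uptake, storage and efflux genes held it. Acat2 and Dhcr7 did not hold it in the window used, and another listed start of Dhcr7 did. The sterol regulatory element, searched as TCACNCCAC on both strands, was found in 1 of the 15 synthesis promoters, that of Hmgcs1, and in 1.22% of all promoters. The E-box CACGTG occurred in 2 of the 15 (13.3%), in 7.24% of all and in 10.7% of the promoters of the genes tested. Motifs were counted separately, whether or not they overlapped, and a match is a description of the letters.

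The stretches upstream of the RefSeq start sites of 4 enzymes follow. Hmgcs1 was chosen because it held the sterol regulatory element, Mvk the most NF-Y boxes, and Msmo1 and Idi1 several boxes in a short stretch. GENCODE places the starts of Msmo1 (64733792) and Idi1 (8885501) further upstream, so their stretches lie inside the genes as GENCODE annotates them. Each is written 5′ to 3′ on the gene's strand, with NF-Y boxes (CCAAT, or ATTGG on the opposite strand) and the sterol regulatory element in capitals.
Hmgcs1, chr13:119690101-119690325, plus strand: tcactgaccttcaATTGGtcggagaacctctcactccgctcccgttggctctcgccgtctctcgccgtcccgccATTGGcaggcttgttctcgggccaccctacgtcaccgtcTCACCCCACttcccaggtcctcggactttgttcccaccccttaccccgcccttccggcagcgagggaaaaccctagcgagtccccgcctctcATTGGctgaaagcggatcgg
Mvk, chr5:114444081-114444268, plus strand: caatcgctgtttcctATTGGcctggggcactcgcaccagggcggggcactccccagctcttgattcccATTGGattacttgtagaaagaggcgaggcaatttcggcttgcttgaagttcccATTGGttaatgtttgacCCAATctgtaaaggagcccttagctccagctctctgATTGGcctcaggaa
Msmo1, chr8:64733614-64733753, minus strand: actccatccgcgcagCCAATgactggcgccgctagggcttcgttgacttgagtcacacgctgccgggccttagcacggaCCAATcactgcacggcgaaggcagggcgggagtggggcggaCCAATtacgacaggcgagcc
Idi1, chr13:8885546-8885605, plus strand: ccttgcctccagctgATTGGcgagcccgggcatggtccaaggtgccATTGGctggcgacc

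The 18 enzymes spanned a wide range of levels. Without hCG, their summed TPM had a median of 582 (196 to 805) in putative unruptured and of 846 (491 to 1730.3) in putative ruptured libraries. Post-hCG, the medians were 1804 on the unruptured side (1066 to 2303) and 1670.3 on the ruptured side (959 to 2071). The regulators summed to medians of 119, 146, 281 and 241 TPM, and the uptake, storage and efflux genes to 754, 940.5, 2699 and 1845 TPM in the same order of groups. The order of single genes was stable at the top. Soat1, which makes cholesteryl esters for storage, was the most abundant member in each of the 4 groups, with medians of 590.0, 730.1, 1691 and 1146 TPM. Fdps, farnesyl diphosphate synthase, came second in each group, and Ebp, a sterol isomerase, was the lowest enzyme, with medians between 3.59 and 6.08 TPM. Dhcr7, which catalyses the last reduction to cholesterol, ranked 18th of 31 on the putative unruptured side and 4th on the ruptured side post-hCG. The ranges of Soat1 and Fdps overlapped in both groups without hCG and were apart in both groups post-hCG.

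Other enzymes of the pathway differed in their course. Sqle, squalene monooxygenase, had medians of 16.2, 25.1, 54.9 and 40.2 TPM in the order putative unruptured, putative ruptured, unruptured and ruptured. Hsd17b7 had medians of 14.8, 20.6, 57.4 and 35.9 TPM, and Idi1 of 11.1, 12.5, 23.8 and 21.4 TPM. In these 3 both post-hCG medians lay above both medians without hCG. Mvk, mevalonate kinase, had medians of 5.87, 11.8, 12.6 and 10.9 TPM, and Pmvk, the next kinase, of 5.5, 8.76, 10.8 and 8.61 TPM. In both kinases the ruptured side post-hCG was no higher in the median than the putative ruptured side. Srebf1 varied least of the regulators by this measure, with medians of 15.2, 18.2, 23 and 18.4 TPM.

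**Figure D1:**
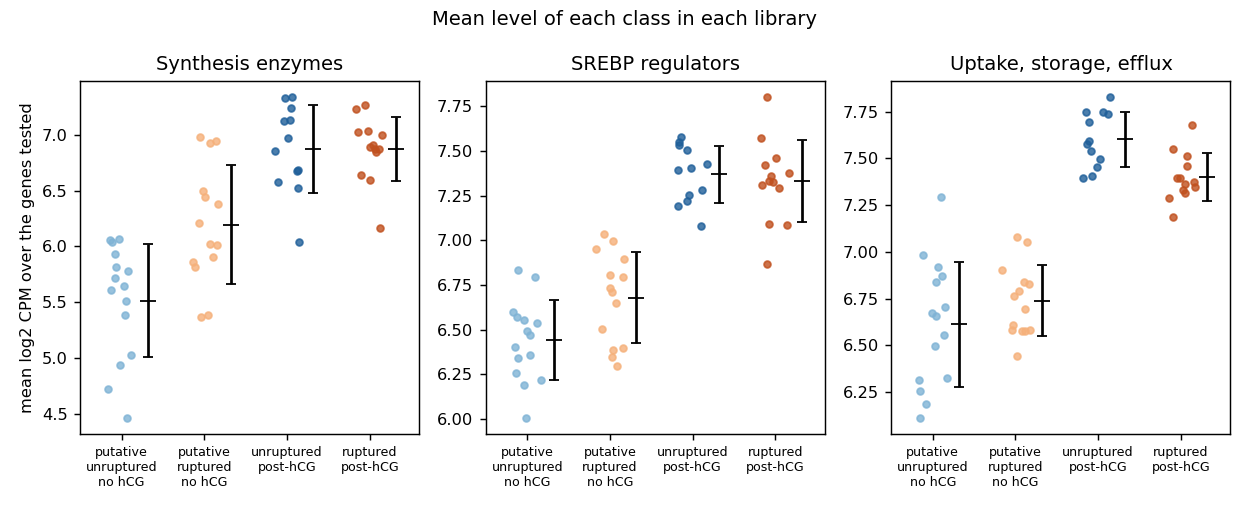
Mean log2 CPM (library-scaled counts, prior count 2) of the tested synthesis enzymes, sterol regulators and uptake, storage and efflux genes, with 1 point per library and the mean ± SD of each group beside the points. The synthesis mean without hCG was 5.52 ± 0.51 (putative unruptured) and 6.20 ± 0.53 (putative ruptured), and 6.87 on both sides post-hCG.

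To determine whether the follicle sides differed before ovulation was induced, the putative ruptured side was compared with the putative unruptured side. Most synthesis enzymes were higher on the putative ruptured side, namely 14 of 18 with 0 lower, against 8.84% of all 9063 genes tested that were higher and 8.96% that were lower. Their median log2FC was 0.80, against −0.01 over all genes. The regulators showed no call among 5, with a median log2FC of 0.28, and 1 of 7 uptake, storage and efflux genes was higher. By DESeq2, 1 of the 5 regulators, Srebf2, passed the same threshold. At an unadjusted p under 0.05 the count of regulators was 4. The study, which used DESeq2, lists Insig1 among cholesterol metabolism genes higher on the putative ruptured side but not on the ruptured side post-hCG. Insig1 was not called here between the putative sides by edgeR or by DESeq2. The study's list also holds Sqle, Nsdhl, Mvk, Pmvk, Msmo1, Mvd, Hsd17b7, Tm7sf2 and Fdft1.

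Acat2, the thiolase that condenses acetyl-CoA units at the entry of the pathway (chr17:12942890-12960747), had the largest difference. It ran from 4.73 to 29.5 TPM (median 12.8) among putative unruptured libraries and from 10.2 to 92.4 TPM (median 23.3) among putative ruptured ones, a 2.39-fold difference (log2FC 1.26 ± 0.29 SE, edgeR adjusted p = 0.002). Its near copy Acat3 had a median of 5.5 counts per library over all groups (0 to 13). Acat2 had medians of 122 (putative unruptured) and 147 counts (putative ruptured), and the split of reads between the copies was not tested. The TPM ranges of Acat2 overlapped between these sides, with 13 of 14 putative ruptured libraries above the putative unruptured median. Msmo1, the sterol methyl oxidase of the demethylation complex (chr8:64718139-64733792), ran from 41.7 to 143 TPM (median 99.6) and from 73.2 to 442 TPM (median 169) on these sides (log2FC 1.15 ± 0.23 SE, edgeR adjusted p = 0.000496). Here 8 of the 14 putative ruptured libraries lay above every putative unruptured library.

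Fdps (chr3:89093588-89101959), which makes the farnesyl diphosphate used for both sterols and protein prenylation, ran from 44.8 to 309 TPM (median 186) and from 134 to 706 TPM (median 254) (log2FC 1.04 ± 0.27 SE, edgeR adjusted p = 0.00669). Mvd, mevalonate diphosphate decarboxylase, had medians of 5.56 and 8.88 TPM (log2FC 1.04 ± 0.23 SE, edgeR adjusted p = 0.00158). Of the exon bases of Fdps, 26.7% lie in a second annotated gene on the same strand, so part of its reads could belong to that gene. The other 10 enzymes that were higher were Dhcr7, Mvk, Sc5d, Nsdhl, Fdft1, Pmvk, Sqle, Ebp, Tm7sf2 and Hsd17b7, with log2FC from 0.40 to 0.98. Hsd17b7, a reductase of the same demethylation steps, was at the threshold (edgeR adjusted p = 0.0482), and its adjusted p reached 0.099 when single libraries were left out.

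The 4 enzymes without a call were not at one step of the pathway. Hmgcs1, the cytosolic HMG-CoA synthase of the early pathway, had a log2FC of 0.30 (95% interval −0.13 to 0.73). Idi1, isopentenyl diphosphate isomerase, had 0.37 (95% interval −0.03 to 0.77). Lss, lanosterol synthase, had −0.04 (95% interval −0.42 to 0.35). Cyp51, the lanosterol demethylase, had 0.20 (95% interval −0.16 to 0.56). For Hmgcs1, Idi1 and Cyp51 the interval reached the log2FC of some called enzymes.

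Stard4, a cytosolic carrier that moves cholesterol between membranes, was the 1 gene of its class past the threshold and ran from 1.45 to 9.79 TPM (median 4.16) and from 2.42 to 10.5 TPM (median 6.58) (log2FC 0.50 ± 0.15 SE, edgeR adjusted p = 0.0159). Among the regulators, Insig1 and Srebf2 came nearest, with log2FC 0.44 (edgeR adjusted p = 0.0734) and 0.35 (edgeR adjusted p = 0.0522). Granulosa and theca markers moved with the same contrast, as 5 of 6 tested granulosa markers were higher and 6 of 8 tested theca and stroma markers lower on the putative ruptured side, and their part in the result was not tested. The putative ruptured libraries also had lower totals, and 14 synthesis enzymes were likewise called after all libraries were thinned to the smallest total. When counts were scaled by library totals only, 13 were called, while the calls over all genes went from 801 higher and 812 lower to 585 and 905. On log2(TPM + 1) values limma called 10, without Mvk, Hsd17b7, Ebp and Dhcr7, and did not call Stard4.

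**Figure D2:**
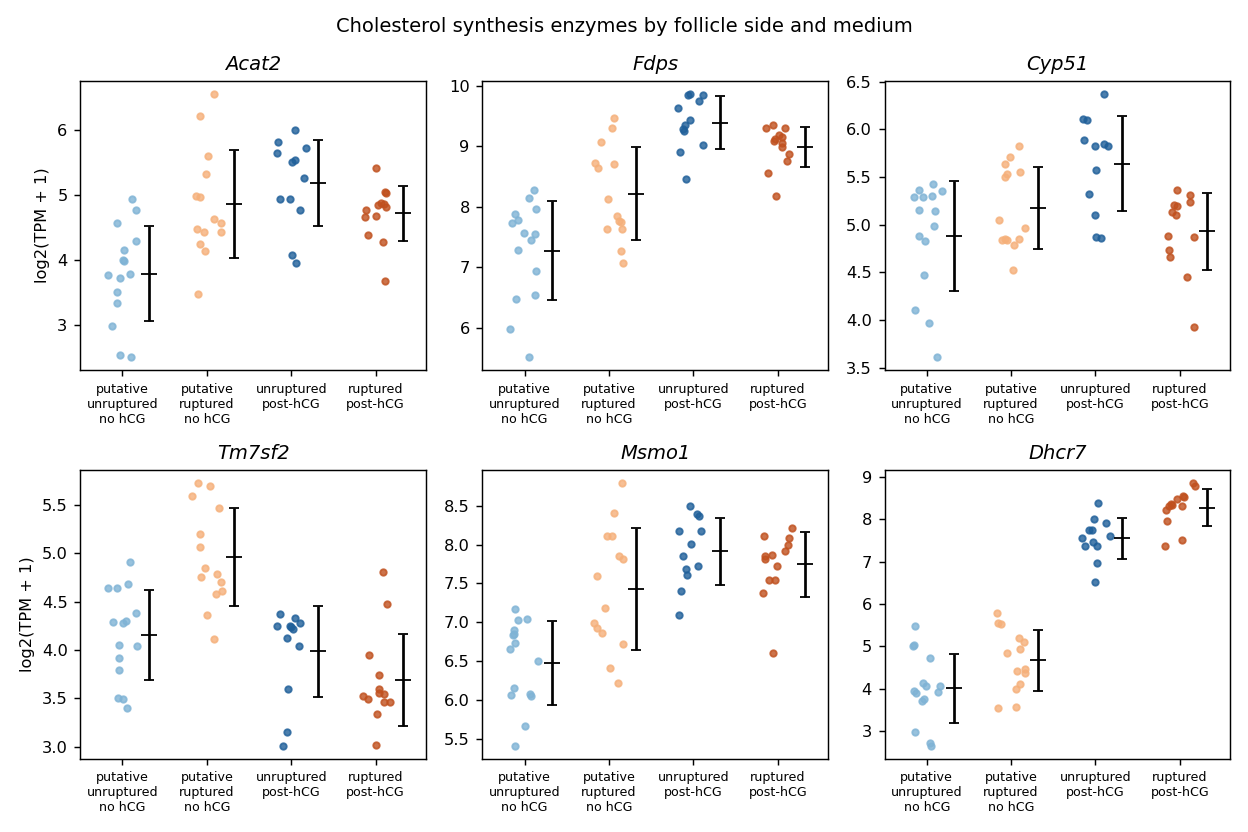
Level of 6 synthesis enzymes as log2(TPM + 1), with 1 point per library by side and medium, and bars for the mean ± SD beside each group. Acat2, Fdps, Tm7sf2 and Msmo1 were higher on the putative ruptured than on the putative unruptured side, and Dhcr7 was higher in every post-hCG library than in any library without hCG.

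Next, the sides were compared post-hCG, when rupture had taken place. The excess of synthesis enzymes was not seen there: 2 of 18 were higher and 1 was lower on the ruptured side, with a median log2FC of 0.02, against a median of 0.01 over the 8585 genes tested, of which 21.4% were called (862 higher and 971 lower). Of the 30 members tested, 3 were higher and 3 lower. This split depended on the scaling. When counts were scaled by library totals only, 1 was higher and 10 were lower (4.62% and 21.3% of all genes), and with limma on log2(TPM + 1), 1 was higher and 11 were lower (2.22% and 22.5% of all genes). The median over all genes was then −0.14 and −0.21 rather than near 0, and the median of the synthesis enzymes was −0.13 and −0.31.

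Dhcr7 (chr7:143823145-143848410) was higher on the ruptured side, at 165 to 463 TPM (median 324) against 90 to 331 TPM (median 189.6) (log2FC 0.76 ± 0.15 SE, edgeR adjusted p = 0.000351), and 5 of 13 ruptured libraries lay above every unruptured library. Its call held under each of the scalings. Sc5d, the desaturase acting just before it, had medians of 73.4 and 71.7 TPM (log2FC 0.51 ± 0.18 SE, edgeR adjusted p = 0.0449), and its call was lost in 16 of 25 refits without a single library (edgeR adjusted p up to 0.0792). It was also lost with library totals, after thinning, in the fit of all 4 groups and on TPM values, on which the log2FC was 0.18. Cyp51 was lower on the ruptured side, at 14.2 to 40.2 TPM (median 33.3) against 28.2 to 81.6 TPM (median 55.7) (log2FC −0.63 ± 0.16 SE, edgeR adjusted p = 0.00438), and all 13 ruptured libraries lay below the unruptured median.

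Scap was higher on the ruptured side under TMM (log2FC 0.42 ± 0.10 SE, edgeR adjusted p = 0.00236), but not past the threshold with library totals or on TPM values. Insig2, which retains the SCAP complex, was lower at 4.09 to 12.6 TPM (median 9.68) against 11.2 to 26.2 TPM (median 18.9) (log2FC −0.51 ± 0.10 SE, edgeR adjusted p = 0.000246). Lipa, the lysosomal acid lipase that frees cholesterol from lipoprotein esters (chr19:34492318-34527474), was lower at 4.96 to 11.4 TPM (median 8.32) against 10.6 to 20.4 TPM (median 15.9) (log2FC −0.61 ± 0.11 SE, edgeR adjusted p = 7e-05). Insig2 and Lipa were each below the unruptured median in all 13 ruptured libraries. The same held for Fdps, Fdft1, Sqle, Nsdhl, Npc2 and Abca1, which were not called, so this count does not set Insig2, Lipa or Cyp51 apart. Over all genes tested, the median difference of log2(TPM + 1) between the sides was −0.21. For Insig2 the ratio of the TPM medians was 0.514, whereas the fold fitted on the counts was 0.704. TPM values are scaled by other totals and by transcript length, and the cause of the gap was not tested. No member had TPM ranges that did not overlap between the sides, either without hCG (0.0331% of all genes tested) or post-hCG (1.18%). Post-hCG, 5 of 6 tested theca and stroma markers were also lower on the ruptured side and 2 of 4 granulosa markers higher, and their part in these differences was not tested.

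**Figure D3:**
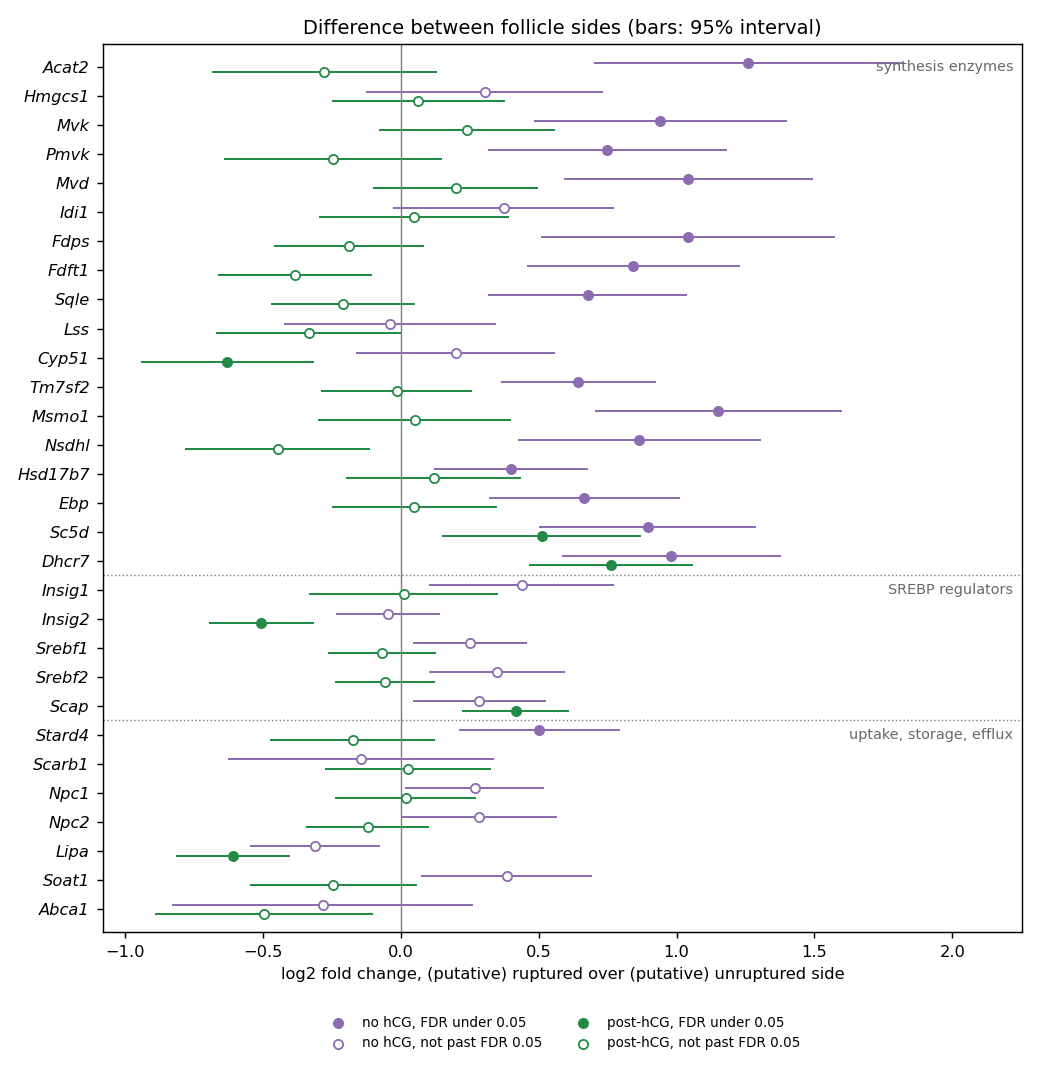
Difference between the sides for each tested member, as the log2FC of the (putative) ruptured over the (putative) unruptured side without hCG and post-hCG, with 95% intervals. Filled points passed an adjusted p of 0.05: 14 of 18 enzymes lay to the right without hCG, and 2 enzymes to the right and 1 to the left post-hCG.

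hCG was then examined on each side by itself, and the comparisons on 1 side share their libraries with the comparisons between sides. On the unruptured side, the whole set rose with few exceptions: 27 of 30 members were higher and 2 were lower post-hCG, against 25.4% of all 9320 genes higher and 27.7% lower. Of the synthesis enzymes 17 of 18 rose, with a median log2FC of 1.40 against −0.03 over all genes. The 5 regulators all rose (median 0.84), and of the uptake, storage and efflux genes 5 rose and 2 fell (median 1.52). With library totals the median of all genes was −0.25 and the calls over all genes went from 2365 higher and 2582 lower to 1455 and 3844, yet the same 17 enzymes rose while Tm7sf2 fell.

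Dhcr7 rose most. It went from a range of 5.33 to 43.5 TPM (median 14.5) on the putative unruptured side to one of 90 to 331 TPM (median 189.6) post-hCG, a 15.5-fold increase (log2FC 3.95 ± 0.19 SE, edgeR adjusted p = 9.63e-18). No library without hCG reached the lowest post-hCG library. Among the enzymes Fdps followed, from 186 to 669.5 TPM in the median, with the post-hCG libraries at 349 to 927 TPM (log2FC 1.99 ± 0.23 SE, edgeR adjusted p = 1.05e-08). Hmgcs1 (chr13:119690379-119708260), whose promoter held the sterol regulatory element, rose from a range of 16.6 to 127 TPM (median 71.3) without hCG to one of 129 to 355 TPM (median 236) post-hCG (log2FC 1.76 ± 0.22 SE, edgeR adjusted p = 4.69e-08). For all 3 of these enzymes the groups did not overlap.

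Ranges without overlap were found for 9 of the 30 members, each of them higher post-hCG, namely Hmgcs1, Fdps, Sqle, Hsd17b7, Dhcr7, Insig1, Srebf2, Scap and Npc2, against 3.82% of all genes tested. No member was lower without overlap (1.45% of all genes). The single enzyme that did not rise was Tm7sf2, a sterol reductase of the endoplasmic reticulum, at 9.6 to 28.9 TPM (median 18.4) without and 7.08 to 19.7 TPM (median 17.7) with hCG (log2FC −0.18, 95% interval −0.45 to 0.08). The remaining 14 enzymes rose by log2FC 0.67 to 1.69.

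Scap, the escort of the SREBP factors, rose from a range of 12.3 to 33.2 TPM (median 27.7) without hCG to one of 69.1 to 124 TPM (median 81.6) post-hCG (log2FC 1.69 ± 0.11 SE, edgeR adjusted p = 7.35e-15). Insig1, itself a sterol-responsive retention protein, rose from a range of 22 to 70.3 TPM (median 46.9) without hCG to one of 70.8 to 156 TPM (median 113) post-hCG (log2FC 1.15 ± 0.15 SE, edgeR adjusted p = 1.56e-07). Srebf2 had medians of 21.3 and 40 TPM (log2FC 0.84 ± 0.11 SE, edgeR adjusted p = 2.08e-07). Insig2 differed least (log2FC 0.26, edgeR adjusted p = 0.0335), and its call was lost with library totals, without the filter, after thinning, and without any 1 of 7 single libraries.

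Among the genes of uptake and storage, Scarb1, the receptor for high-density lipoprotein (chr5:125277087-125341094), rose from a range of 41.6 to 466 TPM (median 125) without hCG to one of 339 to 1196 TPM (median 580.2) post-hCG (log2FC 2.04 ± 0.26 SE, edgeR adjusted p = 5.28e-08). Soat1 (chr1:156424525-156474331) rose from a range of 202 to 1239.7 TPM (median 590.0) without hCG to one of 1169.6 to 2898 TPM (median 1691) post-hCG (log2FC 1.64 ± 0.17 SE, edgeR adjusted p = 5.87e-10). Abca1, which exports cholesterol to lipid-poor apolipoprotein, rose from a median of 0.86 to 3.87 TPM (log2FC 1.56 ± 0.26 SE, edgeR adjusted p = 7.33e-06), from a low level. Npc2, the soluble lysosomal carrier of cholesterol, rose as well (log2FC 1.52 ± 0.14 SE, edgeR adjusted p = 6.9e-11). Its membrane partner Npc1 fell from a median of 2.23 to 1.83 TPM (log2FC −0.51 ± 0.15 SE, edgeR adjusted p = 0.00429), and Lipa fell from 19.1 to 15.9 TPM (log2FC −0.39 ± 0.11 SE, edgeR adjusted p = 0.00299). Neither fall passed the threshold on TPM values. Theca and stroma markers moved with hCG on this side, with 5 of 8 tested lower and 0 higher, as did all 6 tested granulosa markers, with 3 higher and 3 lower, and their part in these differences was not tested.

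On the ruptured side, the synthesis enzymes did not move as one. Of the 18 enzymes, 9 rose, 3 fell and 6 were not called, with a median log2FC of 0.48 against −0.0012 over all genes. In all, 17 of the 30 members were higher and 5 lower, against 29.7% of all 8531 genes higher and 30.4% lower. With library totals these counts were 14 and 7, with a median of all genes of −0.33 and calls over all genes of 1376 higher and 4242 lower in place of 2532 and 2597. The median of the synthesis enzymes was then 0.19. On TPM values 15 members were higher and 5 lower.

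Dhcr7 again rose most, from a range of 10.8 to 54.4 TPM (median 24.5) to one of 165 to 463 TPM (median 324), a 13.4-fold increase (log2FC 3.75 ± 0.20 SE, edgeR adjusted p = 5.3e-17), without overlap. Hmgcs1 rose from a range of 38.7 to 151 TPM (median 81.2) without hCG to one of 118 to 298 TPM (median 214) post-hCG (log2FC 1.53 ± 0.17 SE, edgeR adjusted p = 3.36e-09). Lss (chr10:76531588-76557138) rose from a range of 2.58 to 13.3 TPM (median 8.36) without hCG to one of 8.21 to 27.1 TPM (median 15.1) post-hCG (log2FC 1.41 ± 0.17 SE, edgeR adjusted p = 8.96e-09). Of the 13 post-hCG libraries, 11 for Hmgcs1 and 7 for Lss lay above every library without hCG. Sc5d, Hsd17b7, Idi1, Fdps, Sqle and Mvd rose by log2FC 0.62 to 1.30.

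The 3 enzymes that fell belong to different steps. Tm7sf2 (chr19:6062821-6068373) fell from a range of 16.3 to 51.9 TPM (median 27.2) without hCG to one of 7.09 to 27 TPM (median 10.6) post-hCG (log2FC −0.83 ± 0.15 SE, edgeR adjusted p = 1.64e-05). Nsdhl, the dehydrogenase of the demethylation complex (chrX:72918557-72958514), fell from a range of 7.7 to 32.2 TPM (median 14.5) without hCG to one of 5.59 to 13.4 TPM (median 10.1) post-hCG (log2FC −0.55 ± 0.20 SE, edgeR adjusted p = 0.0206). Fdft1, squalene synthase and the first enzyme committed to sterols (chr14:63145150-63179578), fell from a range of 22.6 to 106 TPM (median 48.4) without hCG to one of 20.8 to 46.7 TPM (median 31) post-hCG (log2FC −0.54 ± 0.17 SE, edgeR adjusted p = 0.00814). In each case all 13 post-hCG libraries lay below the median without hCG. Over all genes tested on this side, the median difference of log2(TPM + 1) with hCG was −0.14. Exons of Fdft1 share 18.3% of their bases with Ctsb on the opposite strand, and the library protocol does not mark strand. Ctsb itself had a log2FC of 0.12 in this comparison (edgeR adjusted p = 0.553). Acat2, Pmvk, Cyp51 and Ebp had log2FC between −0.16 and 0.08, with intervals that spanned 0, as did those of Mvk and Msmo1 (0.35 and 0.34).

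Of the regulators, 4 of 5 rose, namely Scap (log2FC 1.83 ± 0.13 SE, edgeR adjusted p = 4.07e-14), Insig1 (log2FC 0.73 ± 0.19 SE, edgeR adjusted p = 0.0013), Srebf2 (log2FC 0.44 ± 0.11 SE, edgeR adjusted p = 0.0012) and Srebf1 with log2FC 0.37. Insig2 had −0.19 (95% interval −0.37 to −0.01). On TPM values Scap and Insig1 alone among the regulators passed the threshold. Scap had no overlap, with 47.7 TPM as the highest library without hCG and 59.2 TPM as the lowest with it.

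Scarb1 rose from a range of 77.5 to 248 TPM (median 112) without hCG to one of 383 to 871 TPM (median 479.8) post-hCG (log2FC 2.22 ± 0.17 SE, edgeR adjusted p = 3.93e-13), also without overlap. Together with Dhcr7 and Scap it made up the 3 of 30 members that did not overlap, against 3.43% of all genes tested that were higher without overlap, and 0 members were lower without overlap (4.34% of all genes). Abca1 rose from a median of 0.97 to 2.27 TPM (log2FC 1.35 ± 0.22 SE, edgeR adjusted p = 3.66e-06). Npc2 rose from a range of 27.1 to 67.2 TPM (median 44.3) without hCG to one of 64.6 to 108 TPM (median 82.6) post-hCG (log2FC 1.12 ± 0.13 SE, edgeR adjusted p = 3.33e-09), and Soat1 had a log2FC of 1.02 (edgeR adjusted p = 1.63e-06).

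The genes of the lysosomal exit route went both ways. Npc1 fell from a range of 1.96 to 5.16 TPM (median 2.94) without hCG to one of 0.69 to 2.97 TPM (median 1.41) post-hCG (log2FC −0.75 ± 0.12 SE, edgeR adjusted p = 1.48e-06), at a low level of 26 counts per library in the median post-hCG. Lipa fell from a range of 7.29 to 23.5 TPM (median 14.4) without hCG to one of 4.96 to 11.4 TPM (median 8.32) post-hCG (log2FC −0.68 ± 0.12 SE, edgeR adjusted p = 1.84e-05), with all 13 post-hCG libraries below the median without hCG. On the ruptured side 3 of 4 tested theca and stroma markers were lower post-hCG and 0 higher, 3 of 6 granulosa markers were lower and 1 higher, and their part in the result was not tested.

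**Figure D4:**
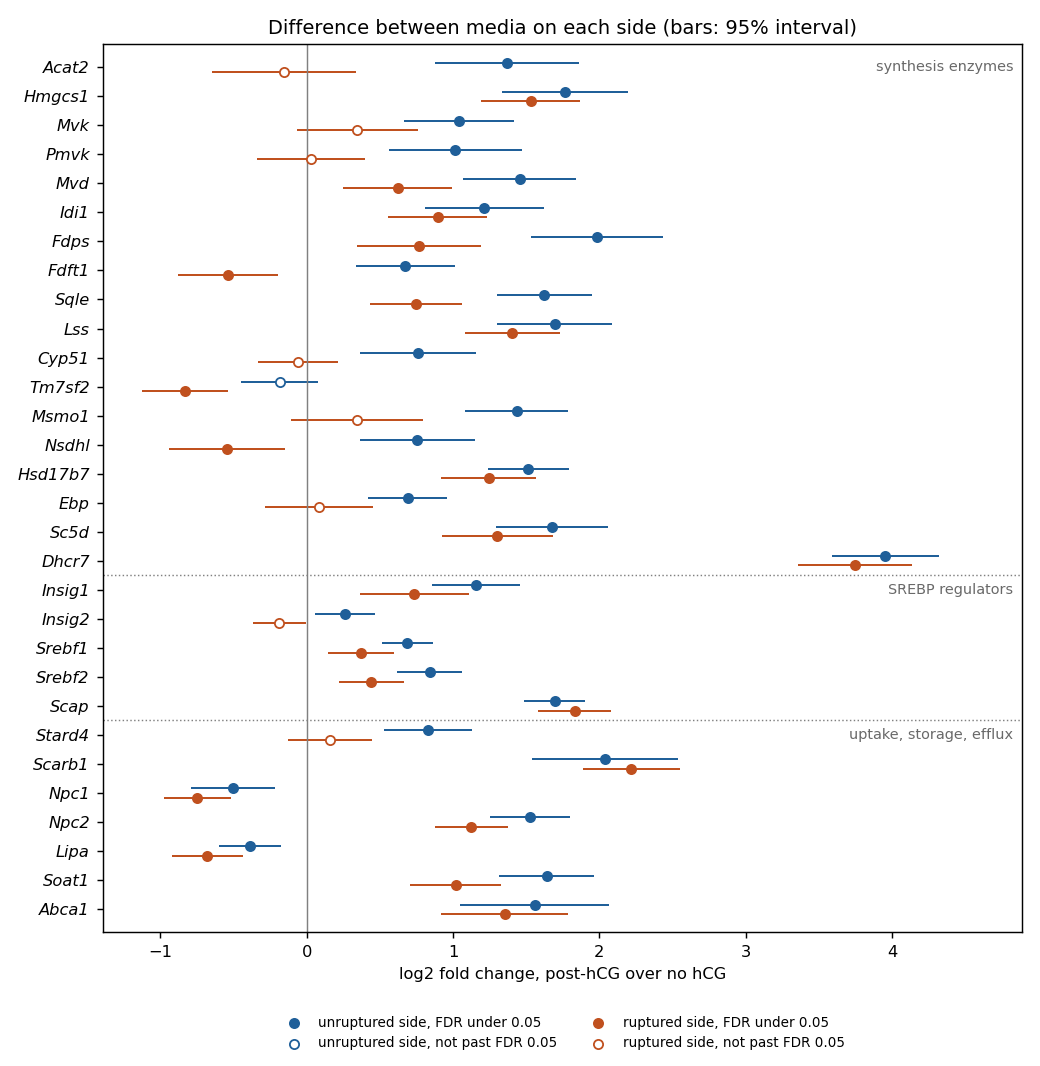
Difference between the media for each tested member, shown separately by side, as the log2FC of post-hCG over no hCG with 95% intervals. Of the 18 enzymes, 17 were called higher on the unruptured side, whereas on the ruptured side 9 were called higher and Fdft1, Tm7sf2 and Nsdhl lower.

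**Figure D5:**
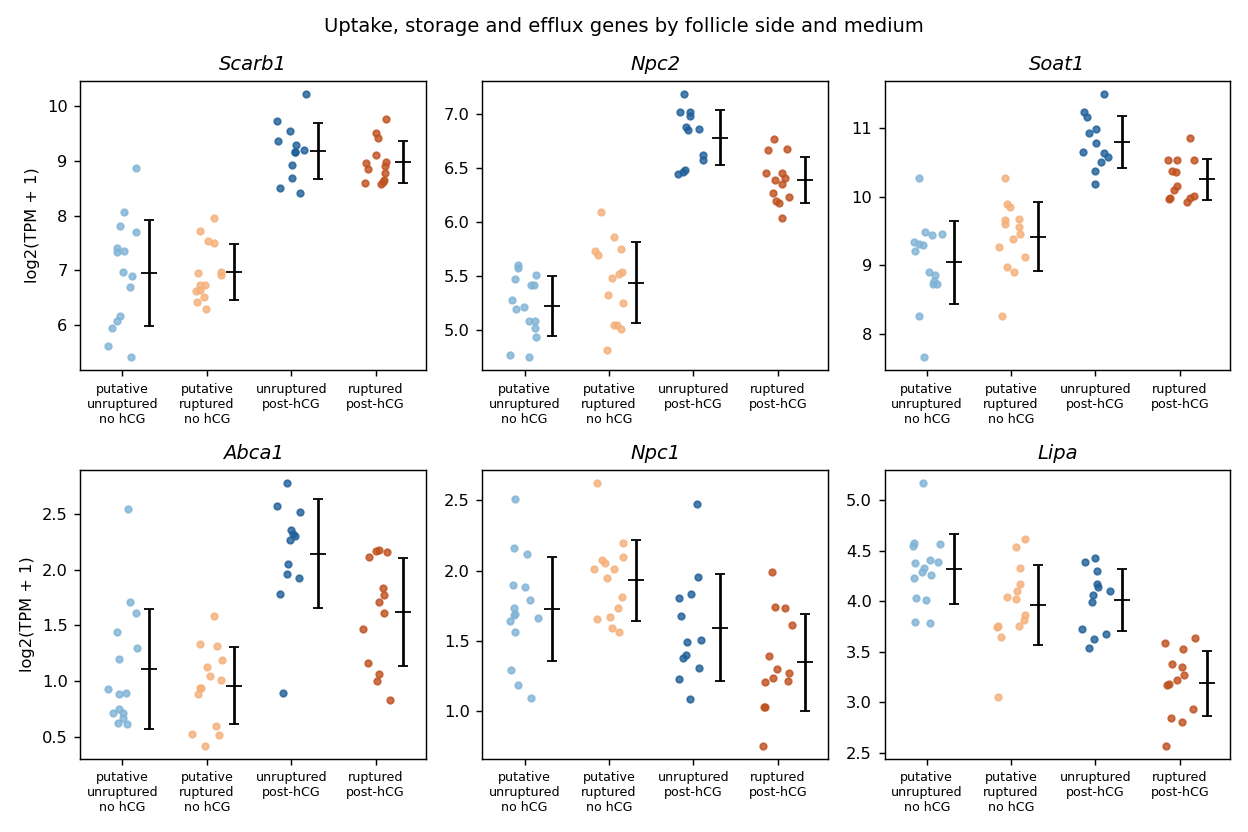
Level of 6 uptake, storage and efflux genes as log2(TPM + 1), with 1 point per library by side and medium, and bars for the mean ± SD beside each group. Scarb1, Npc2, Soat1 and Abca1 were higher post-hCG on both sides, whereas Npc1 and Lipa were lower in the edgeR test.

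Whether the response to hCG differed between the sides was tested as the interaction of side and hCG over all 54 libraries, that is, the log2FC of hCG on the ruptured side minus that on the unruptured side. It was negative and past the threshold for 11 of 30 members and positive for 0, against 4.65% and 4.25% of all 10013 genes tested. Synthesis enzymes made up 9 of these 11, and the estimate was below 0 for all 18, with a median of −0.76 against −0.01 over all genes. The median was −0.40 for the regulators, with 1 of 5 called, and −0.29 for the uptake, storage and efflux genes, with 1 of 7 called. Without the filter on low counts, 6 members were called in place of 11, each of them a synthesis enzyme. With library totals 14 members were lower and 0 higher, while the calls over all genes went from 426 higher and 466 lower to 230 and 660 and their median to −0.11.

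The largest interaction was that of Acat2, at −1.53 ± 0.37 SE (edgeR adjusted p = 0.00521). Its median level went from 12.8 to 41 TPM on the unruptured side and from 23.3 to 27.2 TPM on the ruptured side, where the highest library without hCG reached 92.4 TPM. Nsdhl followed at −1.30 ± 0.30 SE (edgeR adjusted p = 0.00286), with medians from 8.82 to 14.3 TPM and from 14.5 to 10.1 TPM. Fdps and Fdft1 had interactions of −1.22 ± 0.33 SE and −1.22 ± 0.26 SE (edgeR adjusted p = 0.0112 and 0.00114). For Ctsb, which overlaps Fdft1, the interaction was −0.02 (edgeR adjusted p = 0.974).

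Msmo1, Pmvk, Sqle, Cyp51 and Tm7sf2 completed the called enzymes, with interactions from −1.09 to −0.65. Insig2 was the regulator called (−0.46 ± 0.13 SE, edgeR adjusted p = 0.0221). Stard4 was the transport gene called (−0.67 ± 0.22 SE, edgeR adjusted p = 0.0408), and its call was lost without any 1 of 24 libraries. For the 3 members with the largest increase on the ruptured side, no difference in response was called. Dhcr7 had an interaction of −0.21 (95% interval −0.72 to 0.30), Scarb1 of 0.18 (95% interval −0.43 to 0.79) and Scap of 0.13 (95% interval −0.18 to 0.45), and these intervals leave room for differences of that width. Among the other 8 enzymes without a call, Mvd had an interaction of −0.84 (edgeR adjusted p = 0.0523), Mvk of −0.70 and Ebp of −0.61, while Hmgcs1, Lss, Hsd17b7, Idi1 and Sc5d lay between −0.38 and −0.23. Granulosa markers also had a negative median interaction (−1.17, with 2 of 6 called), as did theca and stroma markers (−2.14, with 2 of 8 called), and their part in the result was not tested.

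The enzymes also varied together from library to library inside the groups. After the group means were removed from log2 CPM over the 54 libraries, the median Pearson r over the 153 pairs of synthesis enzymes was 0.72, and 152 pairs were positive. Over all pairs of the 10013 genes tested the median was −0.0004. Within single groups the median over the same pairs was 0.74 (putative unruptured), 0.78 (putative ruptured), 0.74 (unruptured post-hCG) and 0.58 (ruptured post-hCG). Fdft1, Fdps, Hmgcs1 and Sqle had the highest median r with the other enzymes (0.80 to 0.81). Hsd17b7 and Tm7sf2 stood apart at 0.21 and 0.29. The median was 0.51 over the pairs of regulators, 0.08 over the pairs of uptake, storage and efflux genes and 0.23 between these and the enzymes. The points share libraries, depth and cell content, so these correlations are descriptions. On the putative unruptured side, replicate 14 had the lowest synthesis mean, at 4.47 log2 CPM against a group median of 5.65.

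Other genes of the pathway, in lists drawn up with results of these data known, did not all follow the enzymes. Of 11 SREBP targets of fatty acid synthesis, 10 rose and 1 fell with hCG on the unruptured side (25.4% and 27.7% of all genes), and 9 rose and 0 fell on the ruptured side (29.7% and 30.4% of all genes). The largest increase was that of Scd1, a fatty acid desaturase, on the unruptured side (log2FC 2.97 ± 0.26 SE, edgeR adjusted p = 2.67e-11), and that of Acly, which supplies cytosolic acetyl-CoA, on the ruptured side (log2FC 2.81 ± 0.15 SE, edgeR adjusted p = 5.43e-17). Between the sides without hCG 4 were higher and 1 was lower on the putative ruptured side (8.84% and 8.96% of all genes). A negative interaction was called for 2 (4.65% of all genes), of which Scd2 had the larger (log2FC −1.69 ± 0.32 SE, edgeR adjusted p = 0.000284).

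The isoprenoid branches draw on the pathway's intermediates for other products. Of their 4 tested genes, 1 rose on the unruptured side (25.4% of all genes), while 2 rose and 1 fell on the ruptured side (29.7% and 30.4% of all genes). Fnta, a subunit of farnesyltransferase, had the largest change there (log2FC 0.67 ± 0.12 SE, edgeR adjusted p = 2.1e-05), and it was the gene of these lists with a positive interaction besides Cyp11a1 (log2FC 0.85 ± 0.17 SE, edgeR adjusted p = 0.000854). Of 4 genes tied to SREBP processing (Mbtps1, Mbtps2, Erlin1 and Erlin2), 1 rose and 1 fell on each side. Over all genes 25.4% rose and 27.7% fell (unruptured), and 29.7% rose and 30.4% fell (ruptured). Mbtps1, which makes the first cut, fell on both sides (log2FC −0.47 ± 0.09 SE, edgeR adjusted p = 4.54e-05 on the unruptured side, against log2FC −0.71 ± 0.09 SE, edgeR adjusted p = 1.59e-08 on the ruptured side). Mbtps2, which makes the next cut, had log2FC of 0.47 and 0.27. Of the 4 tested genes tied to the sterol-sensing receptor LXR, 2 rose and 2 fell with hCG on each side, where over all genes 25.4% rose and 27.7% fell (unruptured) and 29.7% rose and 30.4% fell (ruptured). Lpcat3, a phospholipid acyltransferase, rose most (log2FC 3.13 ± 0.18 SE, edgeR adjusted p = 1.75e-15 on the unruptured side).

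Of 12 further tested genes of sterol traffic and ester handling, 6 rose and 1 fell on the unruptured side (25.4% and 27.7% of all genes), and 6 rose and 3 fell on the ruptured side (29.7% and 30.4% of all genes). Star, which delivers cholesterol into mitochondria, rose most on both (log2FC 2.83 ± 0.32 SE, edgeR adjusted p = 5.08e-09 on the unruptured side, and log2FC 3.95 ± 0.43 SE, edgeR adjusted p = 1.69e-09 on the ruptured side). Without hCG Star was lower on the putative ruptured side (log2FC −2.06 ± 0.47 SE, edgeR adjusted p = 0.002), unlike the synthesis enzymes. Plin2, a lipid droplet coat protein, was lower on the ruptured side in both media (log2FC −1.92 ± 0.25 SE, edgeR adjusted p = 2.9e-06 without hCG, and log2FC −2.46 ± 0.26 SE, edgeR adjusted p = 4.9e-08 post-hCG). The 3 tested genes of steroid synthesis, Cyp11a1, Fdx1 and Hsd3b1, rose on both sides (25.4% of all genes rose on the unruptured and 29.7% on the ruptured side). Cyp11a1, which cleaves the cholesterol side chain, had a positive interaction (log2FC 2.07 ± 0.55 SE, edgeR adjusted p = 0.0114).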

How the data were processed

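RNA of 54 single follicle sides had been amplified by a full-length poly(A) protocol (Smart-Seq2) that does not mark strand, and sequenced in paired ends. The authors aligned the reads with HISAT2 to GRCm38, and their methods name ComBat-seq for batch correction. The counting tool, the annotation and the batches are not given in the sources used here, nor whether the deposited counts precede that correction, so no batch term could be fitted. The deposited tables held estimated counts per gene (72.2% of non-zero counts were whole numbers) and TPM values per library, whose sums ran from 585982 to 678417 over the 25149 rows.

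Groups came from the submitters' labels. The members and all lists were chosen with earlier results of these data known. After rounding, low genes were removed with filterByExpr (minimum count 10, minimum total 15), TMM factors were computed and edgeR 4.0.16 was fitted (quasi-likelihood F test, Benjamini-Hochberg adjusted p under 0.05 over all genes tested), in R 4.3.3. Each of 5 comparisons used the libraries of its own groups, and comparisons that share a group are not independent. SE was the log2FC over the square root of F, and 95% intervals used the normal quantile of that SE. Members past the threshold with the 3 largest log2FC of their class were described in full, the others by counts and ranges, and the other lists by counts and their largest change. The test was first tested on simulated data.

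Depth was 1497071 to 2834734 counts per library, which limits precision for genes of a few counts. Alternatives were DESeq2 1.42.0, RLE size factors, library totals, no filter, a mean of 20 counts, 1 fit of all 4 groups, thinning, a replicate block, each library left out, and limma 3.58.1 on log2(TPM + 1) and log2(TPM + 0.1) of genes with a mean TPM of at least 1. Promoters came from RefSeq (GRCm38.p6) and gene positions from GENCODE on GRCm38.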

Additional observations from a re-analysis of the deposited data

Results flagged for a closer look

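For 11 genes the response to hCG differed between the sides by the test of the interaction itself (edgeR, Benjamini-Hochberg adjusted over all genes tested). Each interaction was negative, that is, the change with hCG was lower on the ruptured than on the unruptured side. Among the synthesis enzymes it was −1.53 for Acat2, −1.30 for Nsdhl, −1.22 for Fdps, −1.22 for Fdft1, −1.09 for Msmo1, −0.99 for Pmvk, −0.88 for Sqle, −0.82 for Cyp51 and −0.65 for Tm7sf2. It was −0.67 for the cholesterol carrier Stard4 and −0.46 for the retention protein Insig2. The test of Pmvk lost its call without unruptured post-hCG replicate 6, putative ruptured replicate 6 or putative ruptured replicate 13 (edgeR adjusted p up to 0.0577). That of Cyp51 lost it without unruptured post-hCG replicate 11 (edgeR adjusted p = 0.0511), that of Tm7sf2 without any 1 of 6 libraries (up to 0.054) and that of Stard4 without any 1 of 24 (up to 0.0785).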

How the results depend on the processing

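Every member kept its direction of call under the alternatives run. DESeq2 and RLE size factors left 149 and 150 of 150 calls as they were, and limma on TPM values, with either pseudocount, 125. Between the sides without hCG, 1 regulator was called by DESeq2 and 1 in the fit of all 4 groups, and 0 to 2 without single libraries. Of the uptake, storage and efflux genes 0 were called by limma, 2 in the fit of all 4 groups and 1 to 3 without single libraries, and their median was 0.062 by DESeq2 and 0.047 without the filter, which both add Abcg1. Post-hCG, library totals, limma on log2(TPM + 1) and limma on log2(TPM + 0.1) called 11, 12 and 11 members, of which 6, 7 and 7 were enzymes, 1 was a regulator and 4, 4 and 3 were uptake, storage and efflux genes. Of the last class the replicate block called 2, and single libraries left out 1 to 2. The regulators' median was −0.30 under both limma settings, and that of uptake, storage and efflux was −0.43 with the smaller pseudocount. With hCG on the unruptured side, the regulators' median was 0.62 with library totals, and the uptake, storage and efflux median was 1.18 by DESeq2, 1.16 without the filter and 1.04 by limma on log2(TPM + 1). On the ruptured side the regulators' median was 0.12 with library totals, 2 regulators were called by limma, and the uptake, storage and efflux median was 0.64 by DESeq2 and without the filter, 0.68 with library totals and 0.66 by limma on log2(TPM + 1). For the interaction, 6 members, 0 regulators and 0 uptake, storage and efflux genes were called without the filter. Limma called 3 regulators (median −0.65 and −0.67 with the larger and smaller pseudocount) and 2 uptake, storage and efflux genes (median −0.62 with the smaller). Library totals called 3 of the latter, thinning 0, and single libraries left out 0 to 2. The causes were not tested, except that dropping the filter widens the adjustment.

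Without single libraries, the number of synthesis enzymes called was 13 to 14 between the sides without hCG, 2 to 4 post-hCG, 17 and 12 to 13 with hCG on the unruptured and ruptured sides, and 7 to 10 for the interaction. Msmo1 was called with hCG on the ruptured side without putative ruptured replicate 8 (log2FC 0.52, edgeR adjusted p = 0.0273), and Insig2 fell there without putative ruptured replicate 5 (edgeR adjusted p = 0.0238). Srebf2 was called between the sides without hCG in 8 of 29 refits, Fdft1 and Nsdhl post-hCG in 6 and 4 of 25, and Mvd for the interaction in 15 of 54.

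Replicate numbers recur between groups. The mean correlation of same-numbered libraries was −0.02, 0.0088, −0.0047 and 0.04 in the 4 comparisons, and 2 of 14, 3 of 12, 1 of 12 and 3 of 13 pairs correlated best with their own number. This check covers the numbers only, so it cannot decide whether sides of the same follicle are present in another order. With the replicate block, 14, 7, 29, 22 and 12 members were called in the 5 comparisons, against 15, 6, 29, 22 and 11. Depth limits Abcg1 most, whose median count per library was 2 to 5 in the 4 groups. Pmvk (16 to 27), Ebp (21 to 28) and Npc1 (25 to 51) also had few counts.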
